A study of Homo sapiens with 24 samples.

Results

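Lactate transport in human cells rests on a small group of genes, and 7 of them are described here out of 37416 genes listed in the files: SLC16A1, SLC16A3, SLC16A7, BSG, EMB, LDHA and LDHB. They were found by matching each Ensembl identifier to its gene symbol, and all 7 had a row. SLC16A3 was chosen by its response to the ADAR1 hairpin in these same libraries, so its response is given as a description with no test, while the other 6 genes were listed for their part in lactate handling. RNA was sequenced from 4 established breast cancer lines, BT549, HCC1806, MDAMB231 and MDAMB468. Each line carried a lentiviral short hairpin RNA that targets ADAR1 (shADAR1) or the shNT hairpin of the control arm, with 3 biological replicates in each of the 8 groups and 24 libraries in all. Both arms went through infection for 24 h with protamine sulfate at 10 µg/ml and selection with puromycin at 2 µg/ml for 72 h, so no group is free of virus or drug, and all cells grew in medium with sodium pyruvate and 10% serum. The labels give neither the sequence nor the number of hairpins, so the response cannot be told apart from an effect of that hairpin on other transcripts.

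SLC16A1, SLC16A3 and SLC16A7 encode the monocarboxylate transporters MCT1, MCT4 and MCT2, which carry lactate and pyruvate across the plasma membrane together with a proton. MCT4 is known as the exporter of strongly glycolytic cells and its gene as a target of the hypoxia-inducible factors, MCT1 works in either direction, and MCT2 has a high affinity and is usually linked to uptake. BSG encodes basigin (CD147), the chaperone that brings MCT1 and MCT4 to the cell surface, and EMB encodes embigin, the usual partner of MCT2. LDHA and LDHB encode the subunits of lactate dehydrogenase, of which the first favours making lactate from pyruvate and the second the reverse. In bulk RNA a change in level does not show whether fewer cells carried a transcript or each cell held less of it.

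Sequence upstream of 4 of these genes is shown first, since they differ in the letters that hypoxia-inducible factors and E-box factors are known to read. RefSeq promoter windows (build GRCh38.p14) were found for 5 of the 7 genes, and the 250 bases before each listed start were searched on both strands for ACGTG, the core of the hypoxia response element, and for CACGTG, the E-box read by MYC and MLX. Each CACGTG holds a match to ACGTG on either strand, so the counts overlap. The stretches below stop before any exon base of the same gene in GENCODE 29 (for SLC16A3 and BSG they lie after the gene's first annotated exon start, upstream of a later transcript start), and capitals mark the matches; SLC16A7 is shown as a stretch without any.
SLC16A3, chr17:82228792-82229031, plus strand: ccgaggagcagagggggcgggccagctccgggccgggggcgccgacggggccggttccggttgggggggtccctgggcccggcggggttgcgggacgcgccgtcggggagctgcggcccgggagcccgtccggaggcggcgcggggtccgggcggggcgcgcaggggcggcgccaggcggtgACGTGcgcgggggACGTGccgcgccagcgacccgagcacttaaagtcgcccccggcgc
LDHA, chr11:18394313-18394387, plus strand: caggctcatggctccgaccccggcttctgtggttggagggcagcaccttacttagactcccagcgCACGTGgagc
BSG, chr19:572346-572564, plus strand: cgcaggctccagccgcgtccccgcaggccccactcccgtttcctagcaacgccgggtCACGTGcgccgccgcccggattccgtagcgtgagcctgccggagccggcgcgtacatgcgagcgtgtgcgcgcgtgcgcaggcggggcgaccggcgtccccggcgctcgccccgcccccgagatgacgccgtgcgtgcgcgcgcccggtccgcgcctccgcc
SLC16A7, chr12:59595779-59596028, plus strand: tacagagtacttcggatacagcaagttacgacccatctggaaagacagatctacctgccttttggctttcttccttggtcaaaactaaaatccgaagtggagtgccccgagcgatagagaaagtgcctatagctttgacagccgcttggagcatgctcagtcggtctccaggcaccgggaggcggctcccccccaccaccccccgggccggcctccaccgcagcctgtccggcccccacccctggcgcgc
SLC16A3 had 5 such windows, and the window shown was the 1 that held the core, with 2 matches to ACGTG and no E-box. The LDHA window (18394313 to 18394562 in full) held 5 matches in all, of which the printed stretch carries 1 of its 2 E-boxes, and the other LDHA window held none. In BSG 1 of 2 windows held an E-box. No match lay in the 2 windows of SLC16A7 or the 1 window of LDHB. Among 34943 windows of this length over all genes, 18.5% held ACGTG and 6.32% held CACGTG, and a match describes the letters only.

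Total counts ran from 10370645 in MDAMB231 shNT replicate 1 to 97218217 in BT549 shADAR1 replicate 2. Levels are counts scaled to library size (CPM, normalised by the trimmed mean of M values, TMM), and comparisons between genes use CPM per kilobase of the length listed in the files. Transcripts of ADAR, the hairpin's target, stood in shADAR1 at 21.8% of shNT in MDAMB231, 26.1% in BT549, 33.1% in HCC1806 and 37.1% in MDAMB468. Of the receptors that triple-negative lines are defined as lacking, PGR stayed under 1 CPM in all libraries, whereas ESR1 reached 18.0 to 26.8 CPM in HCC1806 and 5.68 to 8.14 CPM in MDAMB468, and ERBB2 was read in all 4 lines at 69.8 to 117.8 CPM. EPCAM and CDH1, epithelial genes, were high in HCC1806 and MDAMB468 and low in BT549 and MDAMB231, and VIM, a mesenchymal gene, was the reverse. PTPRC and ALB, markers of leukocytes and hepatocytes, were under 1 CPM throughout, and PECAM1, an endothelial marker, held 3.92 to 4.89 CPM in MDAMB231 and at most 0.530 CPM elsewhere. The part of such differences between lines in the results below was not tested.

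SLC16A3, the MCT4 gene (ENSG00000141526, chromosome 17, 82228397 to 82261129, plus strand), stood in MDAMB231 at 193.2, 178.5 and 202.5 CPM in the shNT libraries and at 414.0, 357.6 and 421.5 CPM in the shADAR1 libraries. The arms did not overlap, and the lowest shADAR1 library lay far above the highest shNT library. The means were 191 ± 12.1 and 398 ± 34.9 CPM (SD, n = 3), a log2 fold change of 1.06 (SE 0.113) or a 2.08-fold difference. Summed over replicates this rests on 19277 counts in shNT and 45233 in shADAR1. Leaving out any 1 of the 24 libraries kept the log2 value between 1.01 and 1.12.

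In the other lines SLC16A3 was nearly the same in both arms. HCC1806 had 138.7, 161.2 and 130.3 CPM in shNT and 153.4, 160.8 and 128.2 CPM in shADAR1, a log2 value of 0.04 (SE 0.112). BT549 had 4.44, 4.62 and 5.40 CPM in shNT and 5.25, 4.64 and 5.30 CPM in shADAR1, a log2 value of 0.07 (SE 0.124). MDAMB468 had 4.05, 4.58 and 3.31 CPM in shNT and 3.82, 3.48 and 4.06 CPM in shADAR1, a log2 value of -0.07 (SE 0.133). The arms overlapped in these 3 lines, including HCC1806, whose shNT level was the nearest to that of MDAMB231.

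**Figure D1:**
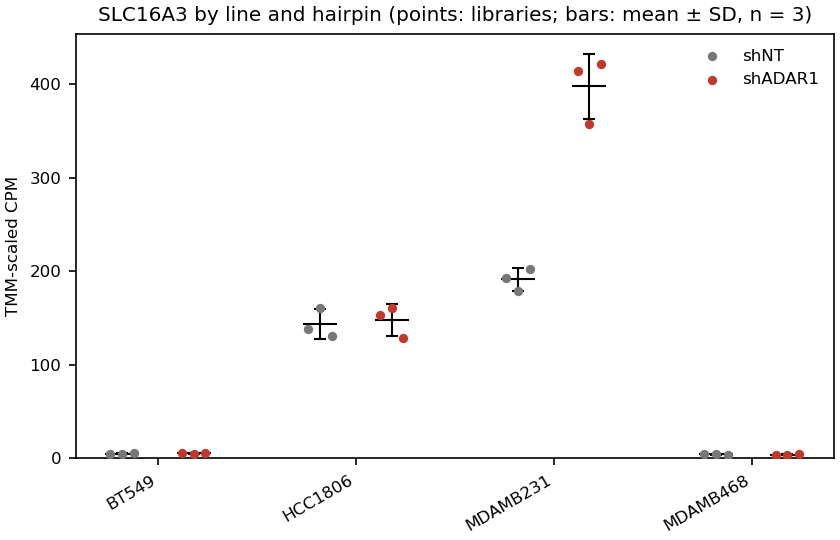
SLC16A3 level (TMM-scaled CPM, y axis) in each line (x axis), with grey points for shNT libraries, red points for shADAR1 libraries and black bars for the mean ± SD (n = 3). The MDAMB231 shADAR1 libraries, at 357.6 to 421.5 CPM, lie above every other library, and BT549 and MDAMB468 lie near the bottom of the axis in both arms.

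Without the knockdown, the order of SLC16A3 was MDAMB231, HCC1806, BT549 and MDAMB468, with shNT means of 191, 143, 4.82 and 3.98 CPM, and the highest mean was 48.1 times the lowest. The 3 BT549 shNT libraries, at 4.44 to 5.40 CPM, overlapped those of MDAMB468, at 3.31 to 4.58 CPM, and both lines lay far below HCC1806. Because the shNT libraries of all lines entered the response by which the gene was picked, the order is a description with no test. By EPCAM, CDH1, KRT5, VIM and ZEB1 the 2 leading lines are 1 epithelial and 1 mesenchymal line, as are the 2 trailing lines. KRT8, KRT18 and CDH2 did not give that split.

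The exon blocks of SLC16A3 share 482 of their 8995 bases, or 5.36%, with CSNK1D, a casein kinase gene on the opposite strand, and the counting is not stated to use strand. CSNK1D stood at 166 ± 9.52 CPM in MDAMB231 shNT and 171 ± 9.73 CPM in shADAR1 (SD, n = 3), a log2 value of 0.04 (edgeR adjusted p = 0.967). A second gene that overlaps SLC16A3 in the files, ENSG00000275505, had 0 counts in all libraries. Of the other protein-coding genes within 100 kb, CCDC57 had log2 values of -0.10 to 0.14 over the lines, and CD7, a lymphocyte surface gene, stayed under 1 CPM. SECTM1, which encodes a ligand of CD7, stood at 12.6, 10.4 and 15.6 CPM in MDAMB231 shNT and at 8.19, 5.86 and 11.6 CPM in shADAR1. Each SECTM1 shADAR1 library was lower than its same-numbered shNT library although the arms overlapped, and the log2 value was -0.59 (edgeR adjusted p = 0.523) or, with the replicate number as a block, -0.62 (adjusted p = 0.00562). TEX19, a germline gene, had 1 count in the MDAMB231 shNT libraries together and 22 in the shADAR1 libraries, all from replicates 2 and 3 (edgeR adjusted p = 0.0922, with the replicate block 0.0192). Its mean over the lines was 1.44 on the log2 scale (edgeR adjusted p = 0.043), a call absent from 18 of the 24 fits with 1 library removed.

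SLC16A1, the MCT1 gene (ENSG00000155380, chromosome 1, 112911847 to 112957013, minus strand), was lowest where SLC16A3 was highest. Its shNT means were 185 ± 12.7 CPM in HCC1806, 145 ± 11.5 in BT549, 30.1 ± 4.13 in MDAMB468 and 0.472 ± 0.0579 in MDAMB231 (SD, n = 3). MDAMB231 had only 5, 24 and 19 counts of SLC16A1 in its 3 shNT libraries and 4, 30 and 36 in its shADAR1 libraries, so the gene was close to silent there in both arms. The summed shNT counts of HCC1806 gave a rate 383 times that of MDAMB231, with a 95% counting interval of 289 to 520. All 6 pairs of lines differed past the threshold, with the smallest difference between HCC1806 and BT549 (log2 0.36, SE 0.14, edgeR adjusted p = 0.0295). Of 24 fits with 1 library removed, 5 no longer called that smallest difference, among them those without BT549 shNT replicate 3 (0.30, adjusted p = 0.106) and without HCC1806 shNT replicate 1 (0.30, adjusted p = 0.101).

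SLC16A7, the MCT2 gene (ENSG00000118596, chromosome 12, 59596067 to 59789855, plus strand), was highest in the 2 lines with the most SLC16A3 and was almost missing from BT549 and MDAMB468, where SLC16A3 was low but present. The shNT libraries held 40.3, 24.1 and 31.0 CPM in MDAMB231 and 20.7, 13.3 and 8.98 CPM in HCC1806. All 3 shNT libraries together held 2 counts in BT549 and 2 in MDAMB468. MDAMB231 exceeded HCC1806 by 1.15 on the log2 scale (SE 0.309, edgeR adjusted p = 0.00269), and BT549 and MDAMB468 could not be placed in order at these counts (adjusted p = 0.926). The rate in MDAMB231 was 2380 times that in BT549, with a 95% counting interval of 657 to 19600.

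The 3 transporter genes therefore came in different mixtures. Per kilobase of listed length, SLC16A1 made up 98.0% ± 0.352 of their summed level in BT549 shNT and 92.6% ± 2.04 in MDAMB468 shNT (SD, n = 3). In MDAMB231 shNT SLC16A3 made up 89.9% ± 1.99 and SLC16A7 9.76% ± 2.03. HCC1806 shNT carried both main genes, with 67.3% ± 2.76 SLC16A1 and 30.7% ± 3.00 SLC16A3. The listed lengths join all exons of a gene (8995 bases for SLC16A3), and with the shortest principal transcript of GENCODE 29 instead (2002 bases for SLC16A3, 3910 for SLC16A1), an alternative chosen after seeing the data, HCC1806 shNT came to 37.4% SLC16A1 and 56.4% SLC16A3. Which of them leads in HCC1806 thus depends on the length used, whereas the leading gene of the other 3 lines was the same under both.

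The summed level of the 3 genes per kilobase was 23.7 ± 1.73 in MDAMB231 shNT and 47.8 ± 4.54 in MDAMB231 shADAR1 (SD, n = 3), which SLC16A3 mostly made up. In shADAR1 the SLC16A3 share of that sum was 92.6% ± 0.884 and the SLC16A7 share 7.16% ± 0.983. BT549 went from 27.7 ± 2.11 to 32.3 ± 3.67, HCC1806 from 51.9 ± 3.13 to 51.7 ± 4.78, and MDAMB468 from 6.10 ± 0.705 to 6.18 ± 0.613. With the shortest principal transcripts the sum was 113 ± 9.25 in MDAMB231 shNT and 225 ± 22.4 in MDAMB231 shADAR1, beside 127 ± 10.1 and 128 ± 14.1 in HCC1806, 39.4 ± 2.73 and 45.7 ± 4.89 in BT549, and 9.68 ± 0.726 and 9.72 ± 0.905 in MDAMB468. The place of MDAMB231 shADAR1 against HCC1806, and of MDAMB231 shNT against BT549, thus depends on the length used, whereas MDAMB468 had the least in either arm with both lengths.

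**Figure D2:**
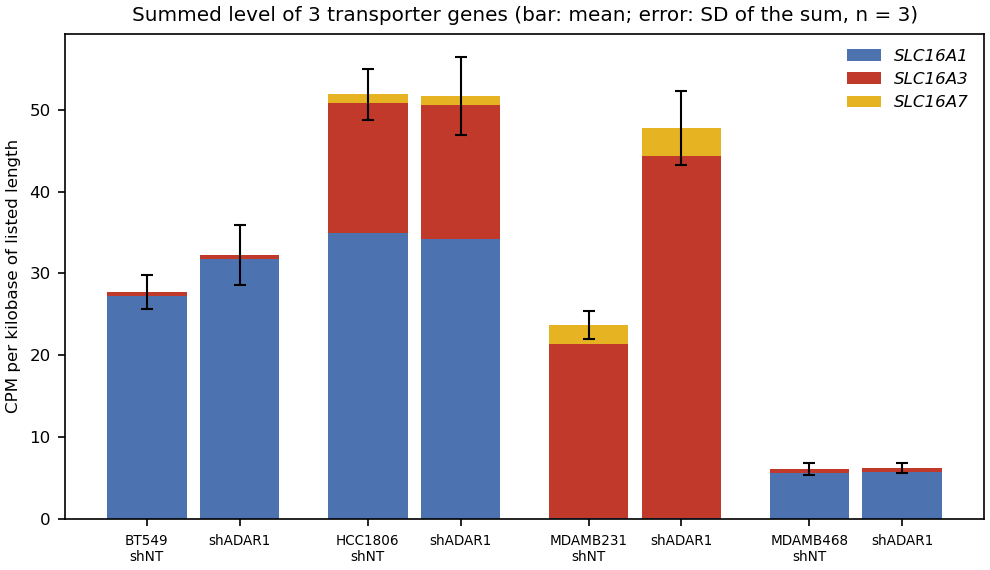
Summed level of SLC16A1 (blue), SLC16A3 (red) and SLC16A7 (yellow) in CPM per kilobase of listed length (y axis) for each line and hairpin (x axis), as stacked means with the SD of the sum (n = 3). The MDAMB231 bar goes from 23.7 in shNT to 47.8 in shADAR1, nearly all of it red, while BT549 and MDAMB468 are nearly all blue.

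BSG, which encodes the chaperone basigin (ENSG00000172270, chromosome 19, 571309 to 583493, plus strand), was high in every line and varied least. Its shNT means were 591 ± 37.7 CPM in MDAMB231, 485 ± 19.5 in HCC1806, 418 ± 21.3 in BT549 and 297 ± 7.14 in MDAMB468 (SD, n = 3). The highest mean was 1.99 times the lowest, and the order was the same as that of SLC16A3. All 6 pairs of lines differed past the threshold. The narrowest, HCC1806 minus BT549, was 0.21 on the log2 scale (SE 0.0721, edgeR adjusted p = 0.013) and lost its call without BT549 shNT replicate 3 (0.17, adjusted p = 0.0643), without HCC1806 shNT replicate 2 (0.19, adjusted p = 0.0572) and with no filter on low counts (0.21, adjusted p = 0.0529).

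EMB, the embigin gene (ENSG00000170571, chromosome 5, 50396192 to 50443248, minus strand), was read in 3 lines and nearly missing in the fourth. The shNT means were 47.0 ± 3.04 CPM in BT549, 29.5 ± 4.27 in MDAMB231 and 28.8 ± 3.85 in HCC1806 (SD, n = 3). The last 2 did not differ past the threshold (log2 0.03, SE 0.184, edgeR adjusted p = 0.909). In MDAMB468 the shNT libraries held 0, 10 and 4 counts, and the summed BT549 counts gave a rate 442 times as high, with a 95% counting interval of 263 to 809. BT549 was highest for EMB although it held 2 counts of SLC16A7, whose product embigin usually accompanies, so the partner genes did not share an order.

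LDHA (ENSG00000134333, chromosome 11, 18394388 to 18408425, plus strand) stood in shNT at 1147 ± 135 CPM in BT549, 998 ± 231 in HCC1806 and 929.8 ± 14.8 in MDAMB231, and at 315 ± 64.8 in MDAMB468 (SD, n = 3). The first 3 lines did not differ past the threshold in any pair (edgeR adjusted p = 0.278, 0.111 and 0.607), and MDAMB468 was lower than each, with adjusted p-values of at most 1.61e-08. Without HCC1806 shNT replicate 1, at 1254 CPM the highest library of its group, HCC1806 was below BT549 by -0.40 on the log2 scale (adjusted p = 0.0364).

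LDHB (ENSG00000111716, chromosome 12, 21635342 to 21757857, minus strand) was read at 397.5 ± 42.9 CPM in HCC1806, 354 ± 42.3 in MDAMB231 and 279.9 ± 41.9 in BT549, and at 9.64 ± 1.26 in MDAMB468 (SD, n = 3). MDAMB468 held 9.39, 8.52 and 11.0 CPM in its shNT libraries, and HCC1806 was 41.2 times as high by the means. HCC1806 and MDAMB231 did not differ past the threshold (edgeR adjusted p = 0.273). MDAMB231 exceeded BT549 by 0.34 on the log2 scale (adjusted p = 0.0276), a call that was lost without BT549 shNT replicate 3 (0.22, adjusted p = 0.177) and without MDAMB231 shNT replicate 2 (0.23, adjusted p = 0.171). Processed copies of the LDHA and LDHB transcripts exist elsewhere in the genome, so reads of these genes may have been split or dropped in counting.

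Within a library, the LDHB level per kilobase of listed length was 84.0% of the LDHA level in HCC1806 shNT, 78.9% in MDAMB231, 50.6% in BT549 and 6.42% in MDAMB468 (geometric means, n = 3). With the shortest principal transcripts the same values were 39.9%, 37.5%, 24.0% and 3.05%, so the order of the lines was the same and the level of the ratio was not. MDAMB468 thus carried nearly only the LDHA subunit gene, together with almost no EMB and the lowest BSG.

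**Figure D3:**
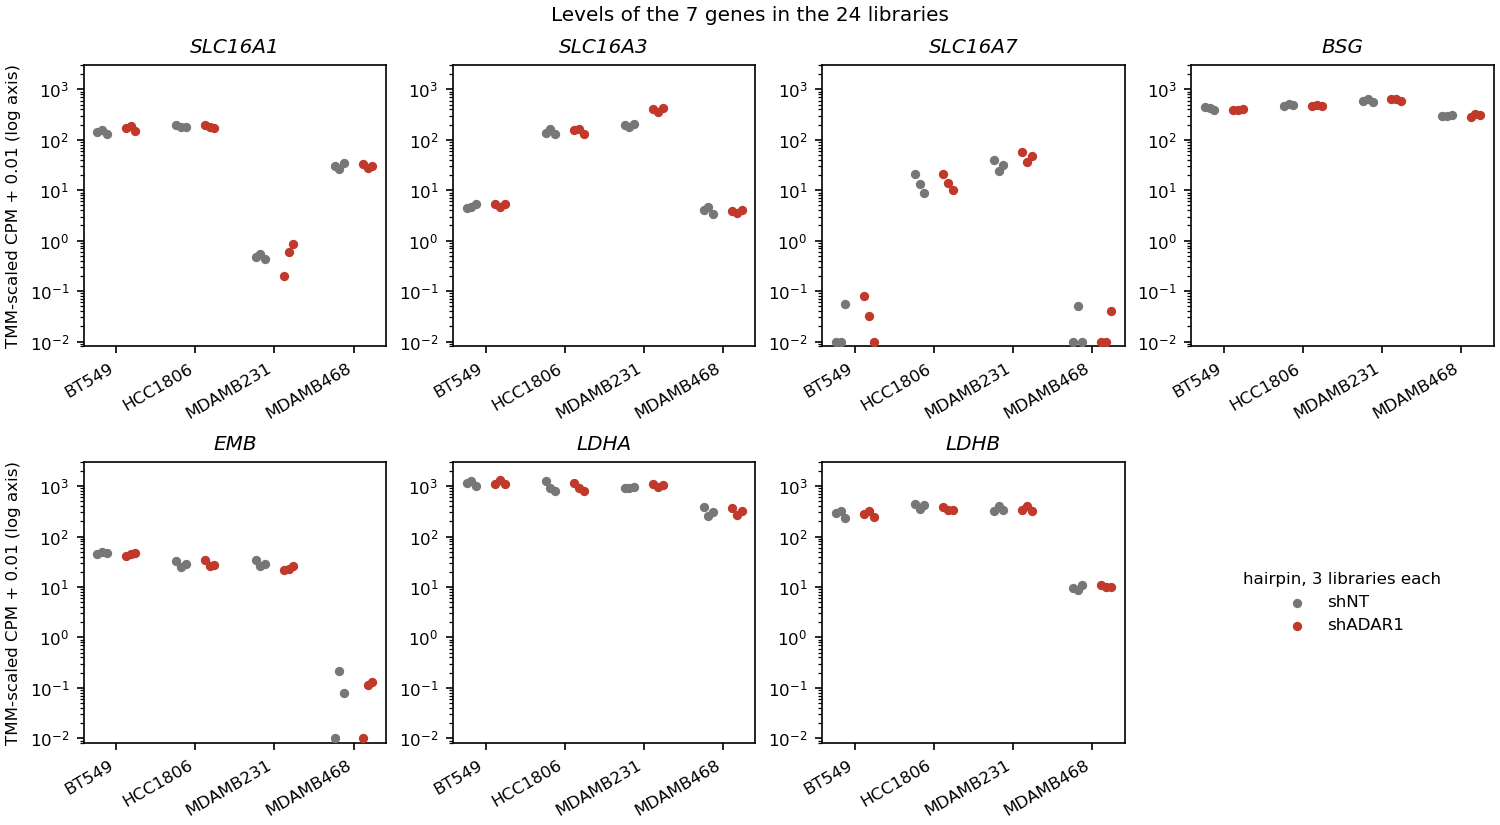
Level of each of the 7 genes (1 panel per gene) in the 24 libraries, as TMM-scaled CPM plus 0.01 on a log axis, by line (x axis) and hairpin (grey shNT, red shADAR1). SLC16A1 drops out in MDAMB231, SLC16A7 in BT549 and MDAMB468, and EMB in MDAMB468, while BSG and LDHA stay within a narrow band.

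For the levels of the 6 genes other than SLC16A3, the joint test between lines in shNT called 6 of 6, beside 85.9% of all 21352 genes tested. Calls in pairs of lines numbered 5 of 6 for HCC1806 against BT549 (63.5% of all genes), 5 for MDAMB231 against BT549 (56.5%) and 5 for MDAMB468 against BT549 (61.0%). They numbered 3 for MDAMB231 against HCC1806 (59.0%), 6 for MDAMB468 against HCC1806 (62.9%) and 6 for MDAMB468 against MDAMB231 (61.8%). Most genes differ between these lines, so a call alone sets none of the 6 genes apart. SLC16A7, SLC16A1 and EMB passed the filter through the lines in which they are high. Their calls between lines, here and above, were largely set by that and are a description. With at least 10 counts in every library, 3 of the 6 were tested and 3 called jointly. That filter gave 14 calls in pairs of lines, against 30 for all 6 genes.

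Against the ADAR1 hairpin, 0 of these 6 genes passed the threshold in any line, in the mean of the lines or in the test of a difference between lines with edgeR, and 0 had an unadjusted p under 0.05. DESeq2 called 0 as well, with 1 at an unadjusted p under 0.05 in MDAMB231. Of all 21352 genes DESeq2 called 812 in MDAMB231, 299 in BT549, 42 in HCC1806 and 42 in MDAMB468. It called 1054 in the mean and 125 in the test of a difference. Over all genes edgeR called 2.01% in MDAMB231, 0.473% in BT549, 0.0468% in HCC1806, 0.0375% in MDAMB468, 2.96% in the mean and 0.0234% in the test of a difference. At the edgeR rates a group of 6 genes would seldom hold a call, so the absence of calls in that fit is close to the background. With the replicate number as a block, 2 of the 6 were called in MDAMB231, where that fit called 11.4% of all genes. The block called 0 of the 6 in the other lines, in the mean or in the test of a difference. Of all 21352 genes it called 1098 in BT549, 448 in HCC1806 and 354 in MDAMB468. It called 2820 in the mean and 1002 in the test of a difference.

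The 95% intervals give the range of changes that each estimate leaves plausible, which is not the size needed for a call. For BSG the log2 fold changes were 0.07 in MDAMB231, 0.04 in MDAMB468, -0.05 in HCC1806 and -0.08 in BT549, and the widest 95% limits over the lines were -0.22 and 0.21. LDHA gave 0.16, -0.00, -0.06 and 0.06 in the same order of lines, with limits from -0.38 to 0.47. LDHB gave -0.00, 0.10, -0.17 and -0.02, with limits from -0.42 to 0.36. For these abundant genes changes as large as that of SLC16A3 in MDAMB231 lay outside the intervals.

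SLC16A1 gave 0.22 in BT549 (SE 0.14, edgeR adjusted p = 0.955), where shNT held 145, 155.7 and 132.8 CPM and shADAR1 172.6, 185.9 and 147.2 CPM. Each shADAR1 library exceeded the shNT library of its number, the arms overlapped, and with the replicate block the adjusted p was 0.0554. In HCC1806 and MDAMB468 the log2 values were -0.03 and 0.02. In MDAMB231 the value of 0.32 had a 95% interval from -0.28 to 0.92, since the gene had few counts there.

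SLC16A7 in MDAMB231 stood at 40.3, 24.1 and 31.0 CPM in shNT and 56.3, 36.4 and 48.5 CPM in shADAR1. Each shADAR1 library was higher than its same-numbered shNT library, but the arms overlapped, since the replicates of an arm lay far apart. The log2 fold change was 0.57 (SE 0.303, edgeR adjusted p = 0.489). With the replicate number as a block it was 0.58 (SE 0.117, adjusted p = 0.0021). In HCC1806 the replicates spread likewise, from 8.98 to 20.7 CPM in shNT and from 9.90 to 21.1 CPM in shADAR1, and the log2 value was 0.07. BT549 and MDAMB468 had at most 6 counts in an arm, and no change could be detected at that depth.

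EMB in MDAMB231 moved the other way, from 34.1, 25.6 and 28.8 CPM in shNT to 21.9, 22.6 and 26.2 CPM in shADAR1. Each shADAR1 library was lower than the shNT library of its number, and the arms overlapped only through shNT replicate 2 and shADAR1 replicate 3. The log2 fold change was -0.31 (SE 0.185, edgeR adjusted p = 0.568), or -0.29 (SE 0.0914, adjusted p = 0.0436) with the replicate block. SLC16A7 and EMB were the 2 of 6 genes called in MDAMB231 under the block, a fit that called 11.4% of all genes there. The log2 values of EMB were -0.08 in BT549 and 0.03 in HCC1806.

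**Figure D4:**
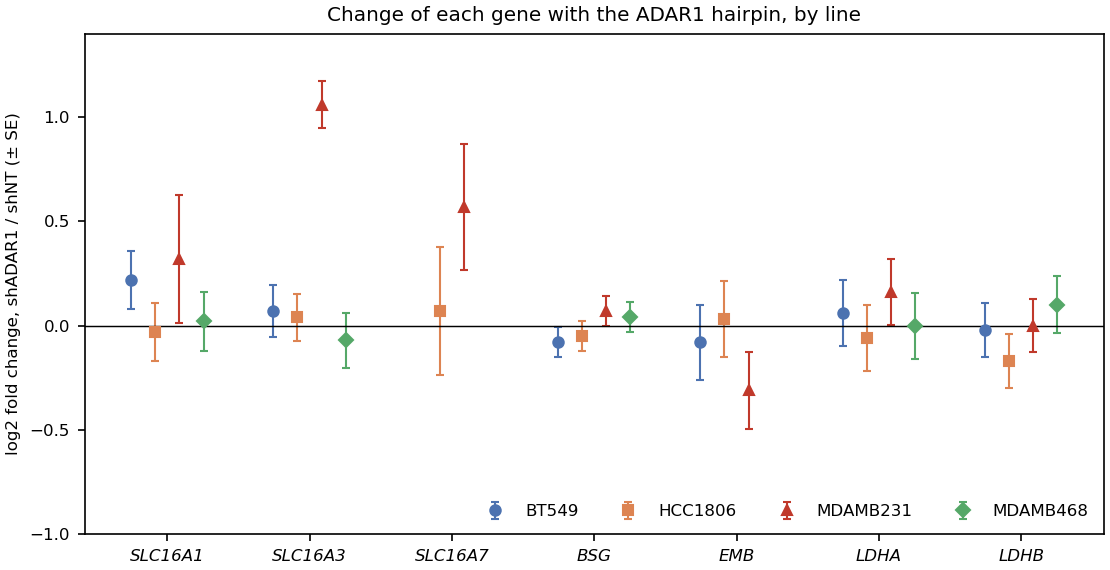
Log2 fold change of shADAR1 over shNT (y axis, ± SE from the edgeR fit of all libraries) for the 7 genes (x axis) in each line. SLC16A3 in MDAMB231, at 1.06, stands apart from all other points, and the next in size are SLC16A7 at 0.57, SLC16A1 at 0.32 and EMB at -0.31 in the same line; SLC16A7 in BT549 and MDAMB468 and EMB in MDAMB468 had under 50 counts and are not drawn.

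Ratios of partner genes within a library, which do not depend on scaling unless counts are near 0, were tested by permuting arms within lines. The log2 ratio of LDHB to LDHA was lower in shADAR1 by -0.063 on average (exact permutation test, 2-sided, p = 0.46, adjusted over the 2 ratios 0.66). It was higher in 2 of the 12 same-numbered pairs, which lay in MDAMB468, and in no pair of the other lines. The paired exact permutation p was 0.241. The mean log2 ratio of MDAMB468 was -3.96 in shNT and -3.86 in shADAR1, that of MDAMB231 -0.34 and -0.50, that of HCC1806 -0.25 and -0.36 and that of BT549 -0.98 and -1.06. The larger SD of the 2 arms was 0.31, 0.29, 0.30 and 0.09 in the same order of lines (n = 3). Each shift was within that SD, which leaves the pairing of libraries out. The log2 ratio of EMB to BSG differed by -0.116 (exact permutation p = 0.66, adjusted 0.66), with 6 of 12 pairs higher. In MDAMB468 EMB held 0, 10 and 4 counts in shNT and 0, 6 and 8 in shADAR1, so the counts added shaped its ratio. The SDs of the ratio there were 1.79 and 1.45, against at most 0.28 in the other lines. The test could therefore hardly show a change in those lines. In MDAMB231 that ratio went from -4.80 ± 0.28 to -5.19 ± 0.23 (SD, n = 3).

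Genes around lactate metabolism were set beside these in 6 lists. Glycolysis, the source of the pyruvate that LDHA reduces, had 19 genes tested, of which 2 rose and 2 fell in the mean of the lines, beside 1.26% of all genes called higher and 1.70% called lower. In the mean of the lines the median log2 value of the list was 0.03, against 0.02 for all genes. In MDAMB231 1 rose and 1 fell, where 0.637% of all genes were called higher and 1.37% lower, and the list's median was 0.08 against 0.00. With the replicate block 6 rose and 3 fell there, in a fit that called 5.09% of all genes higher and 6.33% lower. In the mean the block called 5 higher and 2 lower, beside 7.25% and 5.96% of all genes.

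GPI, which turns glucose 6-phosphate into fructose 6-phosphate, rose by 0.23 in the mean of the lines (SE 0.0478, edgeR adjusted p = 0.00566) and was at 257, 316 and 296 CPM in MDAMB231 shNT and 448, 473 and 431 CPM in shADAR1. The arms did not overlap, and the log2 fold change in that line was 0.64 (SE 0.0961, adjusted p = 0.000302). TPI1, which interconverts the triose phosphates, was at 410.1, 505 and 442 CPM in shNT and 158.5, 319 and 257 CPM in shADAR1. TPI1 fell by 0.88 on the log2 scale in MDAMB231 (SE 0.165, adjusted p = 0.00293, or 0.103 from the line's own 6 libraries) and by 0.55 in the mean (adjusted p = 0.000156). PGK1, the first enzyme of glycolysis to yield ATP, fell by 0.26 in the mean (SE 0.0569, adjusted p = 0.00815), with -0.18 in MDAMB231 (adjusted p = 0.61, with the block 0.0498). GPI and TPI1, both upstream of pyruvate, thus moved in opposite directions in MDAMB231.

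Hypoxia-inducible genes outside glycolysis numbered 18. In MDAMB231 1 rose and 0 fell, beside 0.637% of all genes called higher and 1.37% lower. The median log2 value of the list there was 0.26 against 0.00 for all genes. In BT549, where SLC16A3 was at 0.07, all 18 genes had values above 0, with a median of 0.18 against 0.01, and 1 rose and 0 fell (0.131% of all genes were called higher there and 0.342% lower). The median was -0.06 in HCC1806 and 0.09 in MDAMB468, with no edgeR call. In the mean of the lines 1 rose and 0 fell (1.26% of all genes called higher and 1.70% lower), with a median of 0.14 against 0.02. The called gene was ERO1A, an oxidase that forms disulfide bonds in the endoplasmic reticulum. ERO1A held 135.1, 129.5 and 141.2 CPM in MDAMB231 shNT and 200.3, 194.6 and 225.6 CPM in shADAR1, arms that did not overlap (log2 0.61, SE 0.106, edgeR adjusted p = 0.0013). It rose by 0.65 in BT549 (SE 0.106, adjusted p = 0.00186), and stood at 0.02 in HCC1806 and 0.12 in MDAMB468. With the replicate block 7 of the list rose and 1 fell in MDAMB231 (5.09% of all genes higher and 6.33% lower). In BT549 the block called 6 higher and 0 lower (2.48% of all genes higher and 2.66% lower). In the mean it called 10 higher and 0 lower (7.25% of all genes higher and 5.96% lower). A link of this list to SLC16A3 was not tested.

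Among 11 genes of transcription factors known to act on these promoters, with TXNIP and ARRDC4 as known targets of MLX and its partners, 1 fell and 0 rose in the mean and in each line, beside 1.70% of all genes called lower in the mean and the shares by line given above. That gene was MLX, the partner through which the glucose sensors MLXIP and MLXIPL bind DNA. MLX held 47.1, 52.1 and 53.8 CPM in MDAMB231 shNT and 20.4, 25.6 and 22.8 CPM in shADAR1, a log2 value of -1.15 (SE 0.104, edgeR adjusted p = 4.57e-07). It fell by 1.10 in BT549 (adjusted p = 2.23e-06), by 0.60 in HCC1806 (0.0186) and by 0.58 in MDAMB468 (0.0322). The arms overlapped for SLC16A3 in these lines, and a link between MLX and SLC16A3 was not tested. The MLX call in HCC1806 was lost in 4 of the 24 fits without 1 library, each without a library of that line. It was also lost there with only the line's own 6 libraries (0.822). That fit called 0 genes in all, and ADAR lost its call too (log2 -1.60, edgeR adjusted p = 0.213). In MDAMB468 the MLX call was lost in 15 of the 24 and with no filter on low counts (0.0995). With the replicate block 1 of the list rose and 4 fell in MDAMB231, 1 rose and 2 fell in BT549, and 2 rose and 1 fell in the mean, beside the shares of all genes given above for that fit.

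The 27 genes of pyruvate and lactate handling gave 1 rise and 0 falls in the mean (median -0.00 against 0.02 for all genes) and no call in MDAMB231, where the replicate block called 3 higher and 4 lower (5.09% and 6.33% of all genes). The gene called in the mean was PCK2, the mitochondrial enzyme that makes phosphoenolpyruvate (log2 0.28, SE 0.0765, edgeR adjusted p = 0.0432), and its call was lost in 16 of the 24 fits without 1 library and with RLE or upper-quartile scaling (0.0642 with each). PCK2 went in HCC1806 from 25.5, 24.6 and 30.3 CPM to 45.0, 36.9 and 56.3 CPM (log2 0.78, adjusted p = 0.0652 with edgeR and 2.87e-05 with the replicate block). With the block 7 genes of the list rose and 5 fell in the mean, beside 7.25% and 5.96% of all genes. The 12 other monocarboxylate transporter genes tested had no edgeR call in any line or in the mean. Nor had the 12 genes of proton and bicarbonate handling. In the mean the block called 1 and 3 of them, beside 7.25% of all genes higher and 5.96% lower. In MDAMB231 it called 1 and 4 of them, beside 11.4% of all genes in either direction. Their medians in MDAMB231 were 0.02 and -0.13.

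**Figure D5:**
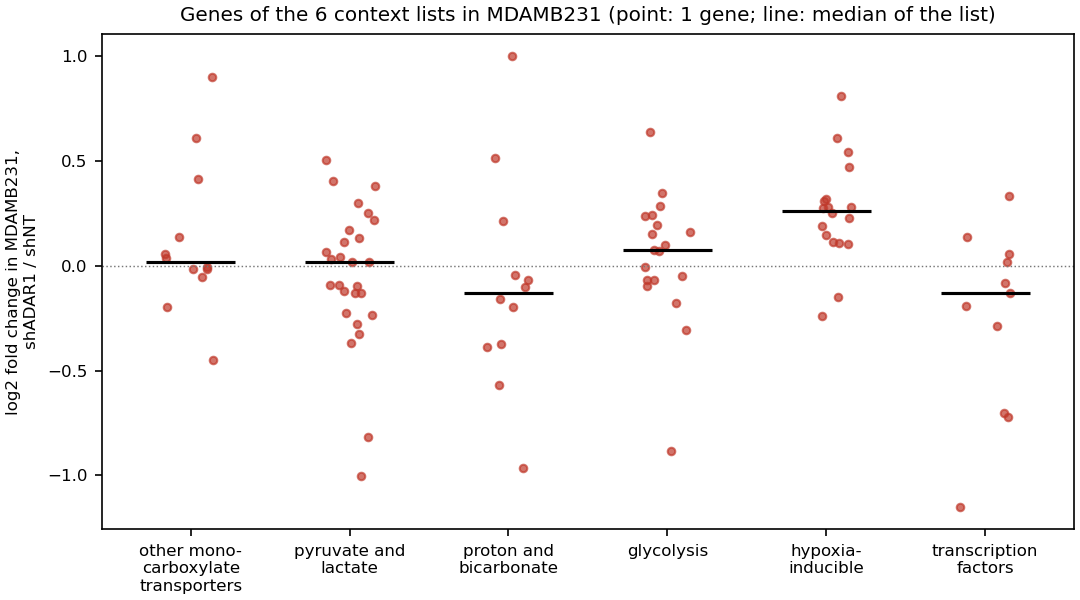
Log2 fold change of shADAR1 over shNT in MDAMB231 (y axis) for each gene of the 6 lists (x axis; 1 point per gene, black line at the list's median). The hypoxia-inducible list has the highest median, 0.26, and the lowest point among the transcription factors is MLX at -1.15.

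Over the 24 libraries, the genes whose log2 CPM was most like that of SLC16A3 among 10939 compared included TRIM25 (Pearson r = 0.987), CLDN12 (0.985), RBMS2 (0.984) and TEAD1 (0.983). Points from the same line share their cells, so these values mostly describe the order of the 4 lines. Among the 5 other lactate genes compared (SLC16A7 was under the level needed), BSG was the most like SLC16A3 (0.881) and SLC16A1 the least (-0.499). TRIM25, CLDN12, RBMS2 and TEAD1 had log2 values in MDAMB231 of 0.12, 0.11, 0.06 and 0.03, against 1.06 for SLC16A3.

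After each line's mean was subtracted, the nearest genes were TRAM2 (r = 0.819), MAP2K7 (0.81), DYRK2 (0.791), CELF1 (0.775) and TET3 (0.774). This measure follows the response of SLC16A3, and their log2 values in MDAMB231 were 0.48, 0.65, 0.43, 0.38 and 0.74, each below the 1.06 of SLC16A3. The other genes of lactate handling were not near it by this measure, with LDHA at 0.219, BSG at 0.131, SLC16A1 at -0.086, EMB at -0.0887 and LDHB at -0.312.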

How the data were processed

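Total RNA was sequenced after removal of ribosomal RNA, from 1 µg per library per the labels' protocols. Read counts per gene were deposited by the authors, and the submitters' processing notes name STAR, Subread, featureCounts and edgeR; strand use, genome build and annotation are not given in the sources used here. The deposited CPM values are counts scaled to each library's total, per the file headers, and the deposited RPKM values divide CPM by the kilobases each gene is listed with; neither was used for a test. Coordinates are those of the files; 31354 of 37416 genes had the same span in GENCODE 29 on GRCh38, BSG not among them. Symbols came from a name table that matched 33972 genes.

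Counts were tested with edgeR 4.0.16 (R 4.3.3; quasi-likelihood F test, 2-sided) in a model of all 24 libraries with 1 coefficient for each of 8 groups, TMM scaling (factors 0.924 to 1.12) and filterByExpr, which left 21352 genes. The Benjamini-Hochberg method adjusted p-values across all of them, with a threshold of 0.05. Limits of 95% take a normal multiple of an SE derived from the F statistic. They are slightly narrower than limits that allow for the degrees of freedom of the fit. All 7 genes passed the filter, SLC16A7, SLC16A1 and EMB through the lines in which they are high. Ratios used counts per kilobase with 0.5 added. The most similar replicate pair still differed by 10.92 in chi-square per degree of freedom, so none was merged. The script was tested on simulated data. Alternatives were DESeq2 1.42.0, RLE and upper-quartile scaling, other filters, a replicate block, a line's own 6 libraries, only the 12 shNT libraries, and leaving out each library.

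Same-numbered libraries of the arms deviated together in MDAMB231 (correlations 0.204, 0.348 and 0.149) and HCC1806 (0.242, 0.332 and 0.443). They also did in BT549 (0.139, 0.158 and 0.25) and MDAMB468 (0.165, 0.166 and 0.0651), with the weakest value in MDAMB468. Each shADAR1 library correlated best with the shNT library of its own number, which was read as pairing. The main fit left the pairing out, and the replicate block took it in. The genes and lists were chosen with earlier results of these data known. Named beyond the 7 genes are ADAR, at most 3 genes per list with the smallest p past the threshold in the mean or else in MDAMB231, the 5 genes most like SLC16A3 by each measure (mean log2 CPM of at least 2; 1 of them is not reported here), genes that overlap one of the 7 and protein-coding genes within 100 kb of SLC16A3.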

Additional observations from a re-analysis of the deposited data

Results flagged for a closer look

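The response of SLC16A3 to the ADAR1 hairpin differed between lines, with log2 fold changes of 1.06 in MDAMB231, 0.07 in BT549, 0.04 in HCC1806 and -0.07 in MDAMB468. The gene was picked for this difference, so no test is attached to it here. None of the other 6 genes passed the edgeR test of a difference between lines. Nor did the genes named from the lists, in a test that called 0.0234% of all genes. With the replicate block the adjusted p of that test was 0.000137 for GPI, 0.00138 for ERO1A and 0.00228 for MLX. It was 0.00332 for PCK2, 0.0316 for TPI1 and 0.279 for PGK1, and that fit called 1002 of 21352 genes. With DESeq2, which called 125 of them, it was 0.000243 for GPI, 0.000436 for MLX and 0.00713 for ERO1A. PCK2, TPI1 and PGK1 did not pass the threshold with DESeq2. These genes were named by their response in the same libraries, so their values are a description. Groups of 3 libraries are too small for a check of single outlying libraries.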

How the results depend on the processing

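No value changed direction past the threshold under any alternative. Over all genes, the number called moved as follows. With DESeq2 it was 299 in BT549 (101 with edgeR), 42 in HCC1806 (10), 812 in MDAMB231 (429), 42 in MDAMB468 (8), 1054 in the mean (632) and 125 for the difference between lines (5). With the replicate block, in the same order, it was 1098, 448, 2437, 354, 2820 and 1002. From a line's own 6 libraries it was 226, 0, 117 and 21. A filter of at least 10 counts in every library gave 185 in BT549, 16 in MDAMB468, 25 for the difference and 11287 for levels in shNT (18341), where fewer genes were tested. With no filter it was 18 in HCC1806 and 22 for the difference. Leaving out 1 library gave 61 to 122 in BT549, 4 to 15 in HCC1806, 202 to 526 in MDAMB231 (202 without MDAMB231 shADAR1 replicate 1), 3 to 13 in MDAMB468, 500 to 706 in the mean, 2 to 14 for the difference and 18261 to 18680 for levels in shNT. Of the 6 genes other than SLC16A3, the block called 2 in MDAMB231; under the filter of 10 counts 3 were tested and 3 called for levels in shNT, and 14 of their pairs of lines against 30 for all 6 genes; leaving out 1 library gave 27 to 30 pairs. The replicate block changed no other call on these 6 genes. Leaving out 1 library gave -0.105 to -0.020 for the log2 ratio of LDHB to LDHA and -0.350 to 0.095 for that of EMB to BSG; without MDAMB468, tried after the data were seen, they were -0.117 and -0.108. Every shADAR1 library correlated best with the shNT library of its own number. Of 5674 other alternative values, 5550 were counted as unchanged, of which 199 changed sign. A call was lost by 92 and gained by 32, and the cause was not tested. Unchanged meant the same side of the threshold or, for SLC16A3, a shift of less than 1 replicate SD. Values without an adjusted p, such as TEX19 in the mean with DESeq2, also counted as unchanged. SLC16A7 in BT549 and MDAMB468 and EMB in MDAMB468 had too few counts to show a change. SLC16A1 in MDAMB231 had few counts as well, with a 95% interval from -0.28 to 0.92 on the log2 scale. Intervals of count ratios cover counting error only.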
